A study of Drosophila melanogaster with 3 samples.

Results

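The cytoplasmic ribosomal protein (RP) genes encode the proteins of the 2 subunits of the ribosome, RpL and RpLP proteins for the large and RpS proteins for the small one. They were taken as the protein-coding genes of Ensembl release 115 on the 6 main chromosome arms whose symbol starts with RpL, RpS or RpLP and a number, which gave 92 of 13945 genes, 54 of them RpL (RpLP included) and 38 RpS. The data were peak lists from chromatin immunoprecipitation with sequencing (ChIP-seq) of whole Drosophila melanogaster embryos, 4 to 16 hours old, of the strain unpg-GFP, which carries a transgene of unpg, a homeodomain transcription factor, with GFP at its C terminus. There was 1 group with 3 biological replicates, numbered 3, 4 and 5. The sample descriptions name an anti-GFP antibody, whereas the antibody field names unpg. All libraries came from mixed cells of whole embryos, and no precipitation from embryos without the tag was analysed here, so the part of the tagged protein in any peak described below was not tested.

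RP genes are among the most strongly transcribed genes of growing cells, and in Drosophila many of them are Minute loci, at which the loss of 1 copy delays development. Their core promoters commonly carry a polypyrimidine initiator, known as the TCT motif, in place of the usual initiator, and several carry the DNA replication-related element (DRE) bound by Dref or Motif 1, which is bound by M1BP. Many host small nucleolar RNAs (snoRNAs) in their introns. The transcription start site (TSS) is called the start below, positions are negative upstream of it, and a promoter summit is a peak maximum within 500 bp of the nearest start. The IDR list is the authors' set of 7176 peaks kept by the irreproducible discovery rate as reproducible between replicates, and an IDR summit is the maximum of a peak in it.

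The promoters of 6 members with a reproducible summit show where the peaks lay. Each line gives 100 bases before to 30 bases from the canonical start, 5′ to 3′ on the strand of the gene, from the RefSeq Release 6 genome, which is the build (dm6) of the peak lists. Capitals mark the words TATCGATA (DRE) and GGTCACACT (Motif 1) on either strand and runs of 8 or more C or T from 10 bases before the start onward. RpS27 and RpL14 were chosen as strong members, RpL23A for an initiator region of 2 pyrimidine runs, RpL27 and RpL34a for a DRE beside such a run, and RpL4 for a summit 1 bp from its start. The IDR summit lay at 13 bp in RpS27, -26 bp in RpL14, -63 bp in RpL23A, -10 bp in RpL27, -99 bp in RpL34a and 1 bp in RpL4.
RpS27 (chr3R:25247485-25247614, minus strand): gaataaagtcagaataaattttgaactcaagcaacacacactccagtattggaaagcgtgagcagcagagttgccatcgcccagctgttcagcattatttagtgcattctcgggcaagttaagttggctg
RpL14 (chr3L:8600906-8601035, plus strand): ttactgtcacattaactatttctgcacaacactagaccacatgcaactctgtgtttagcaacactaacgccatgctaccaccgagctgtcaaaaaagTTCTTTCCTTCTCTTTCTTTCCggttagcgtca
RpL23A (chr3L:1668625-1668754, minus strand): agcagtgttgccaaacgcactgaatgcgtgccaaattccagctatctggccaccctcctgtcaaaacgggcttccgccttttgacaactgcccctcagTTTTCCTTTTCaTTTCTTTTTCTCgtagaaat
RpL27 (chr3R:25685022-25685151, minus strand): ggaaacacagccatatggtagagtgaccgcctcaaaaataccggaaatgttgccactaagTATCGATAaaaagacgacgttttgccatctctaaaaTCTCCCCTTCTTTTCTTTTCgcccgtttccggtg
RpL34a (chr3R:26059238-26059367, minus strand): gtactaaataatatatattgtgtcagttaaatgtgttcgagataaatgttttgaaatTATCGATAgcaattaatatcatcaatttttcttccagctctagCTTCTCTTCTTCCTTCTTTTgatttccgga
RpL4 (chr3R:27922721-27922850, plus strand): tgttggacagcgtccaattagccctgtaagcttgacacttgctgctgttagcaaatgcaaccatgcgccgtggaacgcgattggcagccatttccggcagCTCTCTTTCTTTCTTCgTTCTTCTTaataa
The RpS27 promoter, with the strongest member summit, held none of the marked features, while RpL14 had an unbroken run of 22 pyrimidines across its start.

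The first question was how many members had a summit whose nearest start was theirs, within 20 kb. In the IDR list 71 of 92 members (77.2%) had one, against 3679 of 13853 other protein-coding genes (26.6%) and 26.9% of all protein-coding genes. Among the 7176 strongest peaks of each replicate, 70 members (76.1%) had a summit in replicate 3, 71 (77.2%) in replicate 4 and 75 (81.5%) in replicate 5. The share over all protein-coding genes was 28.1% in replicate 3, 27.5% in replicate 4 and 28.0% in replicate 5. The share was 78.3% ± 2.88 in members and 27.5% ± 0.318 in other genes (SD, n = 3), and the difference of 50.8 ± 2.86 percentage points had the same sign in all 3 replicates (exact sign-flip permutation test, two-sided, p = 0.25). With 3 replicates 0.25 is the smallest p this test allows, here and in each test below, so no comparison could pass 0.05.

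Most of the set recurred across replicates. Of the 92 members, 66 had a summit among the strongest peaks of all 3 replicates, 7 of 2 replicates, 4 of 1 replicate and 15 of none. A promoter summit in all 3 replicates was present at 66 members and at 1593 of 13853 other protein-coding genes. The full split over replicates is not given here for other genes, so whether members recurred more steadily than other genes with a summit was not tested. In the full lists of 30000 peaks, which reached far weaker calls, 80, 79 and 83 members had a summit in replicates 3, 4 and 5, and 50.8%, 51.0% and 51.7% of all protein-coding genes did. In these full lists 75 members were present in all 3 replicates and 5 in none, namely RpL21, RpL22-like, RpL34b, RpL37-2 and RpS27A, of which RpL34b and RpS27A had summits nearby that were assigned to a neighbour.

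Related gene groups had fewer genes with a summit. Of the 73 mitochondrial RP genes, which encode the separate ribosome of that organelle, 16, 17 and 13 had a summit in replicates 3, 4 and 5 (21.0% ± 2.85), 57.3 ± 5.59 percentage points below the cytoplasmic genes (exact sign-flip p = 0.25). The difference was 35.2 points when any summit within 500 bp of a start counted, shared between genes. Under that count members lay 58.7 points above other protein-coding genes, so the mitochondrial RP genes were above those genes. By the nearest start they were below the 27.5% of other genes, so their place against the background rests on the assignment. Translation factors, a list of 36 initiation, elongation and release factors, were at 38% ± 3.21, which was 40.3 ± 4.96 points below the members (exact sign-flip p = 0.25). Among them eEF2, the translocation factor, had an IDR summit at rank 1492, 12 bp upstream of its start, and eIF6, known from large subunit maturation, had one at rank 59. A pair of RP genes named otherwise also had summits close to their starts: sta (the small-subunit protein SA) at rank 2344 and -25 bp, and Rack1 at rank 1240 and -15 bp.

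**Figure D1:**
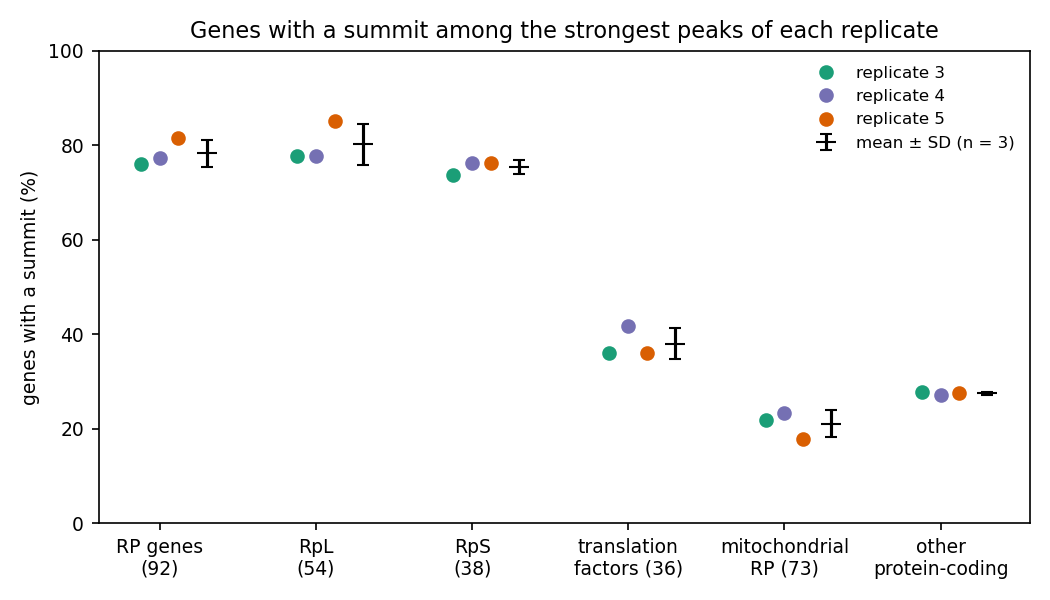
Share of genes with a summit among the 7176 strongest peaks of each replicate (y axis, percent) in RP genes, their RpL and RpS subsets and 3 other gene groups (x axis); points are replicates and bars the mean ± SD over 3 replicates. The RP genes lie between 76.1 and 81.5%, and the other protein-coding genes between 27.1 and 27.8%.

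The summits of RP genes lay at or close to the start. Of 77 member summits in the IDR list 72 were promoter summits, at a median of -10.5 bp (quartiles -39.8 and 12.2 bp), against -117 bp for the 2564 promoter summits of other genes. Within 50 bp of the start were 53 of the 72 (73.6%), against 433 of 2564 (16.9%). An IDR promoter summit was present at 71 of 92 members (77.2%) and at 17.0% of all protein-coding genes. Measured from the nearest annotated start, the extremes were RpL27A at -196 bp and RpL35 at 125 bp. From the canonical start the RpL35 summit lay at -129 bp.

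Each replicate gave the same picture. The median position of member promoter summits was -19.0, -2.50 and 8.0 bp in replicates 3, 4 and 5, against -116, -108 and -108 bp in other genes. These medians did not overlap, whereas the positions of single summits did. The members thus lay 106 ± 9.52 bp further downstream (SD, n = 3, exact sign-flip p = 0.25), or 59.2 bp when all peaks of each replicate were used. The share within 50 bp was 71.6% ± 1.94 in members and 18.0% ± 1.70 in other genes. Mitochondrial RP genes had a median of -114 bp ± 10.9, and translation factors of -41.3 bp ± 5.86. Member summits also moved little between replicates: 66 members had a promoter summit in all 3, its position ranged over a median of 38 bp, and in 47 of them (71.2%) over at most 50 bp. For the 1593 other genes with one in all 3 replicates the median range was 35.0 bp, and 67.0% kept within 50 bp.

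**Figure D2:**
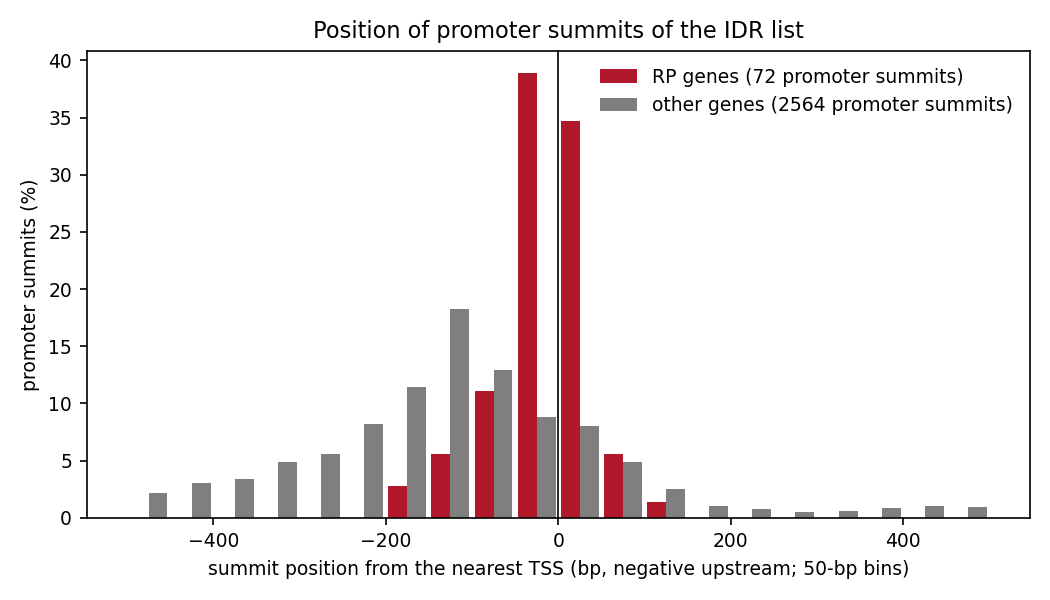
Position of IDR promoter summits from the nearest start (x axis, bp in 50-bp bins, negative upstream) as a percentage of the promoter summits of each group (y axis), for RP genes (red) and other protein-coding genes (grey). The bins on either side of the start hold 38.9 and 34.7% of the member summits, against 8.78 and 8.0% of the others, which are most frequent between 150 and 100 bp upstream (18.3%).

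Member summits were of above-average rank but not at the head of the list. The authors' signal value was used only to rank peaks within a list, rank 1 being the strongest. The median rank percentile, the share of a list's peaks that were weaker, was 74.3, 67.6 and 70.6% for member promoter summits in replicates 3, 4 and 5, against 55.8, 51.6 and 52.3% for those of other genes. The difference was 17.6 ± 1.41 points (SD, n = 3, exact sign-flip p = 0.25). In the IDR list 63 of 72 member promoter summits (87.5%) were among the strongest 3588 peaks, against 1389 of 2564 others (54.2%). The best member rank was 367. With all peaks of each replicate the percentile difference was 26.5 points.

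RpS27, a zinc-finger protein of the small subunit, was the strongest member at IDR rank 367, with ranks 252, 567 and 554 in replicates 3, 4 and 5, at -6, -1 and 13 bp. RpL7, at IDR rank 374, ranked 318, 432 and 438 in the replicates. Its summit lay at 37 bp in replicate 3 and at -40 and -39 bp in replicates 4 and 5, from the nearest of its 2 starts. The canonical start lies 30 bp from that of Ripalpha, which would claim summits that far upstream. The negative values thus refer to the other RpL7 start, and the change of sign is no shift across 1 start. RpL14 followed at rank 479, with replicate ranks 399, 593 and 634 and positions of -19, -27 and -14 bp. The replicate ranks of these 3 genes lay between 252 and 634, and their summits kept within 50 bp of a start. Other members of high IDR rank were RpS4 (610), RpL32 (647, a common reference gene in fly expression assays), RpL24 (680), RpL30 (692), RpS20 (762), RpL23A (783), RpL19 (793) and RpL13A (893). Among these, RpL32 at -95 bp, RpS20 at -147 bp and RpL23A at -63 bp had their IDR summit more than 50 bp from the start. At the other end stood RpL6 (rank 6060), RpL40 (6215) and RpS3 (7062). RpS3 had ranks 11872, 6420 and 6321 in replicates 3, 4 and 5, so in replicate 3 it was outside the strongest 7176 peaks.

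**Figure D3:**
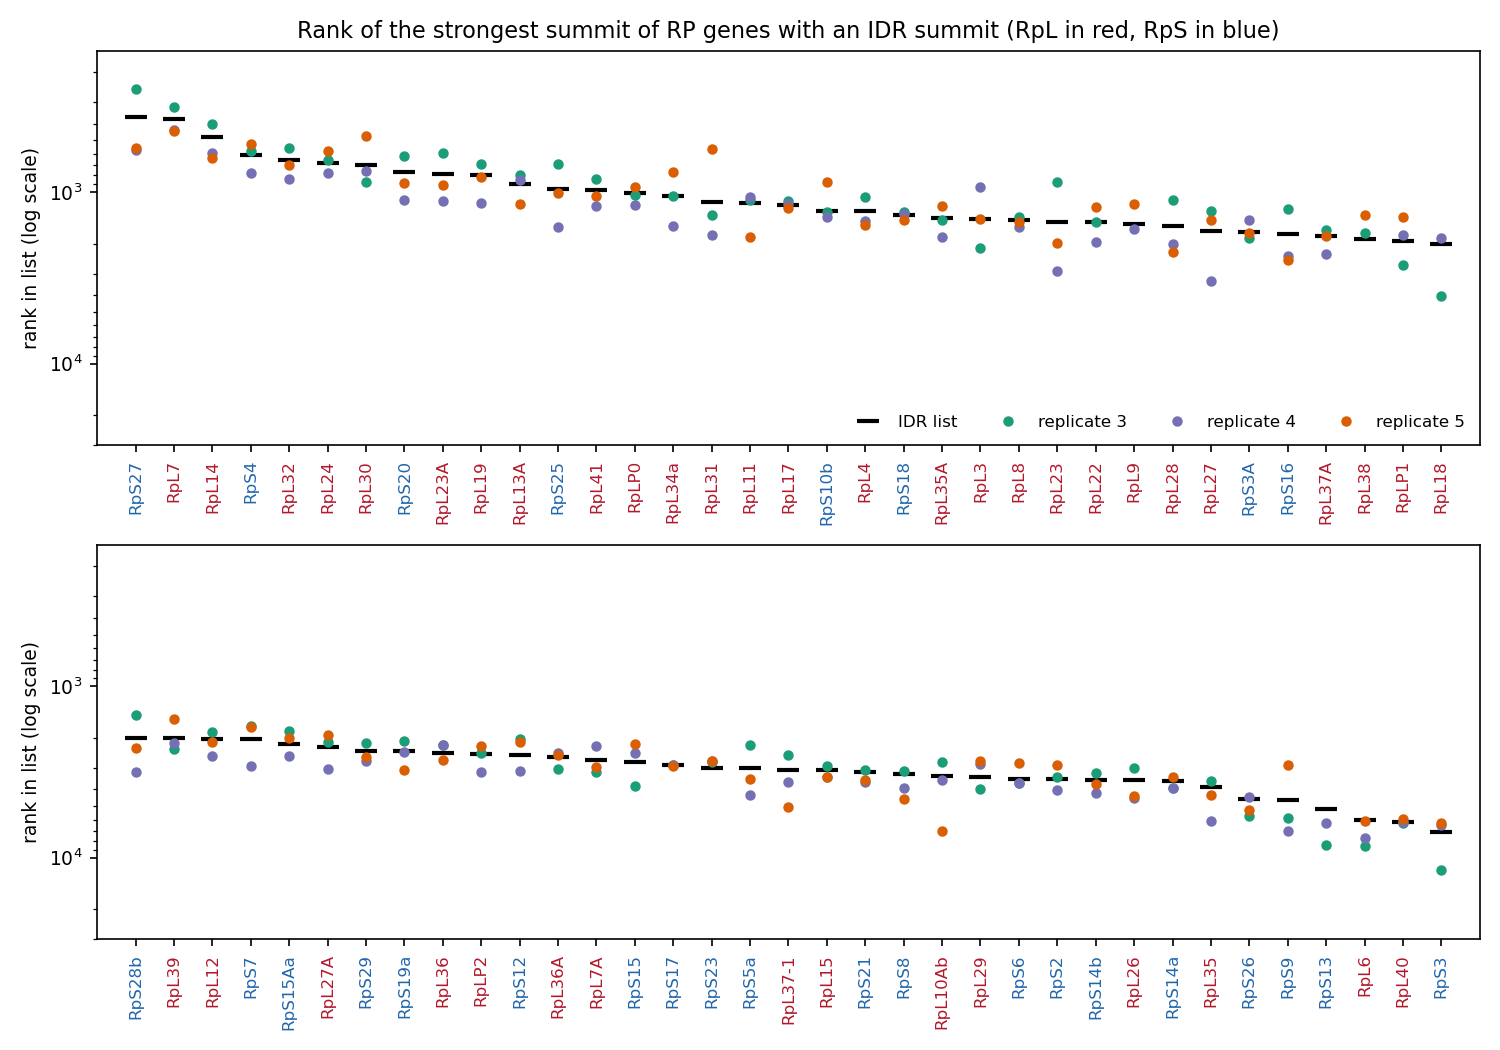
Rank (y axis, log scale, strongest at the top) of the strongest summit of RP genes with an IDR summit (x axis, ordered by IDR rank), in the IDR list (black bars) and in replicates 3, 4 and 5 (points). RpS27 leads at rank 367 and RpS3 is last at rank 7062. A missing point means that no summit of that replicate list was assigned to the gene.

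Large- and small-subunit genes were compared next. A summit was found in 42, 42 and 46 of 54 RpL genes (80.2% ± 4.28) and in 28, 29 and 29 of 38 RpS genes (75.4% ± 1.52) in replicates 3, 4 and 5. The difference of 4.81 ± 3.76 points (exact sign-flip p = 0.25) was little more than its SD, became 17.5 points with the strongest 3588 peaks of each replicate and turned to -6.04 points with the full lists of 30000 peaks. RpL summits ranked higher, with a median rank percentile of 77.4% ± 2.39 against 62.5% ± 6.66 for RpS, and differences of 9.47, 18.1 and 17.2 points in the 3 replicates (exact sign-flip p = 0.25). Their median position was -12.2 bp, against 5.33 bp for RpS, a difference of -17.5 ± 3.50 bp (exact sign-flip p = 0.25). The share within 50 bp was 71.9% in RpL and 71.0% in RpS, a difference of 0.897 ± 8.44 points (exact sign-flip permutation p = 1.0).

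By role in the ribosome, the counts below stand beside 77.2% of all members and 26.9% of all protein-coding genes with an IDR summit; at the members' share, a small group in which every gene has one does not stand apart. All 4 genes of the stalk and its base, which recruits the translation GTPases, had IDR summits: RpLP0 (rank 1012), RpLP1 (1928), RpL12 (2023) and RpLP2, whose promoter summit was at rank 4213. All 8 genes for proteins around the exit tunnel, where the nascent chain leaves, had one, between rank 783 for RpL23A and rank 3853 for RpL35. Of the pair that binds the 5S RNA, RpL11 had a summit at rank 1154 and -12 bp, whereas RpL5 had none in the IDR list. RpS2 (rank 3497) and RpS3 (rank 7062), at the mRNA entry, both had one, as had RpS6, the target of S6 kinase, at rank 3479 and 64 bp downstream. All 5 head proteins of the list had one, from RpS20 (762) over RpS10b (1284), RpS19a (2405) and RpS12 (2519) to RpS15 (2754). Of the 3 genes whose protein is made as a fusion to ubiquitin or a ubiquitin-like protein, RpL40 (rank 6215) had one and RpS27A and RpS30 did not. For RpS27A this rests on the assignment, since a summit at rank 1672 lay 25 bp from the start it shares with Ip259. RpS30 ranked 3904, 4117 and 5026 in replicates 3, 4 and 5.

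In most paralog sets 1 gene was occupied, meaning that an IDR summit was assigned to it. The 92 members include 27 genes in 13 sets of related symbols, of which 14 (51.9%) had an IDR summit, against 57 of the 65 members outside such sets (87.7%); the background was 26.9%. In 12 of the 13 sets exactly 1 gene had a summit, and in RpS14 both had. The occupied genes were RpL10Ab, RpL22, RpL24, RpL34a, RpL37-1, RpL7, RpLP0, RpS10b, RpS15Aa, RpS19a, RpS28b and RpS5a. Their partners without one were RpL10Aa, RpL22-like, RpL24-like, RpL34b, RpL37-2, RpL7-like, RpLP0-like, RpS10a, RpS15Ab, RpS19b, RpS28a with RpS28-like, and RpS5b. At 2 of these an IDR summit lay within 500 bp but nearer to another gene, 52 bp from RpLP0-like (rank 3413) and 151 bp from RpL34b (rank 233), and RpLP0-like had a summit of its own in replicate 5, at rank 4888 and -5 bp. Of the partners, RpL22-like, RpS5b, RpS10a and RpS19b are known from the germ line, and RpL24-like, RpL7-like and RpLP0-like are homologous to yeast factors of ribosome assembly rather than to parts of the finished ribosome. Among the 13 genes without a summit 5 had no intron (RpL10Aa, RpL37-2, RpS10a, RpS15Ab and RpS28a), as did 0 of the 14 with a summit. An intron was present in 83.8% of all protein-coding genes and in 90.6% of those with an IDR summit.

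Promoters of 5 sets are shown with the occupied gene first, in the same frame and with the same capitals as above, to set the letters of partners side by side.
RpL10Ab (chr3L:11822751-11822880, plus strand): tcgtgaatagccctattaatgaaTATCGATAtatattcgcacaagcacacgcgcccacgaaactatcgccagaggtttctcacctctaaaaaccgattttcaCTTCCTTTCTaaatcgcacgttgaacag
RpL10Aa (chr3R:15037266-15037395, plus strand): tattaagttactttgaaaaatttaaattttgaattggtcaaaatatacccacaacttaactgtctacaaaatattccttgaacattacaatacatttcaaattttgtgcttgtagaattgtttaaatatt
RpS5a (chrX:17148235-17148364, minus strand): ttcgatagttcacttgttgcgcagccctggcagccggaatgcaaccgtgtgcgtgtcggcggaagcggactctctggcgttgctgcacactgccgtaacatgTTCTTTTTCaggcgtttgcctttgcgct
RpS5b (chr3R:14901534-14901663, minus strand): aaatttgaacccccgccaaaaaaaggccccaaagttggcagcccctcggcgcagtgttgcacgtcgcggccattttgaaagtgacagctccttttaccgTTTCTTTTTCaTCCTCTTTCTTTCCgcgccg
RpS19a (chrX:16637794-16637923, plus strand): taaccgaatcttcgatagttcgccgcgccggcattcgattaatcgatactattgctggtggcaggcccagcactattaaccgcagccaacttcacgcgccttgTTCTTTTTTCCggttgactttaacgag
RpS19b (chr3R:23933501-23933630, minus strand): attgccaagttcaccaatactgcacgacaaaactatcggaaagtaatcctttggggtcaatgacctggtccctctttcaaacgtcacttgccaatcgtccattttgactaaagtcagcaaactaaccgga
RpS28b (chrX:9554523-9554652, plus strand): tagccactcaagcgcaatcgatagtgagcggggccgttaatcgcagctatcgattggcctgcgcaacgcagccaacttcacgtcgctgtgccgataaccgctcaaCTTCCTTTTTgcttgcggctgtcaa
RpS28a (chr3R:30022619-30022748, minus strand): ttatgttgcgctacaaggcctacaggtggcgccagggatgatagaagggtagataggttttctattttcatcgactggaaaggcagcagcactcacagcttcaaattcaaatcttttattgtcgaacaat
RpS14a (chrX:7933642-7933771, plus strand): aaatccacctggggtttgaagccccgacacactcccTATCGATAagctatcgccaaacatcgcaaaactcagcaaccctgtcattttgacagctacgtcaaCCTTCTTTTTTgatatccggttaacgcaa
RpS14b (chrX:7934798-7934927, plus strand): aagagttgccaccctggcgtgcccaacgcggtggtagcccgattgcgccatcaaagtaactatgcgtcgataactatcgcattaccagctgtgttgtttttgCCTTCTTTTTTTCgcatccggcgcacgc
Runs of 8 or more pyrimidines were searched from 10 bases before to 30 bases from the start. They were present in 12 of the 14 occupied genes of paralog sets (85.7%, Wilson interval 60.1 to 96.0). Of the 13 others, 4 had a run (30.8%, Wilson interval 12.7 to 57.6). RpS5b was among these 4, and RpS14a and RpS14b, both occupied, each carried a run. The share was 66.3% over all members and 6.53% over all protein-coding genes. Both groups are small, and the search was chosen after the letters were seen.

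By the rank of their assigned summits the partners differed in every replicate; since the IDR list was drawn from the same replicates, these ranks describe the split and do not test it. RpL7 ranked 318, 432 and 438 in replicates 3, 4 and 5, whereas RpL7-like had a summit in replicate 5 alone, at rank 9092. RpS5a, with ranks 2215, 4337 and 3489, stood above RpS5b with 12599, 14894 and 11176, with its strongest summits at -595, -556 and -600 bp. Weaker RpS5b summits lay 30 bp from its start in replicate 4 (rank 17761) and 41 bp in replicate 5 (rank 13633). RpS15Ab had summits at 4, 74 and -16 bp in replicates 3, 4 and 5, at ranks 13725, 13242 and 27169. RpS10b ranked 1301, 1397 and 871, and RpS10a, a gene without an intron, 10330, 9507 and 29796. RpL22, RpL34a and RpL37-1 had summits in all 3 replicates, and no summit was assigned to RpL22-like, RpL34b or RpL37-2 in any of them. At RpL34b this rests on the assignment: a summit lay 150, 191 and 159 bp from its start in replicates 3, 4 and 5, at ranks 250, 271 and 177, nearer to the start of CG8132. RpS14a (ranks 3945, 3906 and 3379) and RpS14b (3217, 4209 and 3707) overlapped; they are tandem copies with near-identical coding sequence, and how reads matching both were placed is not given in the sources used here.

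**Figure D4:**
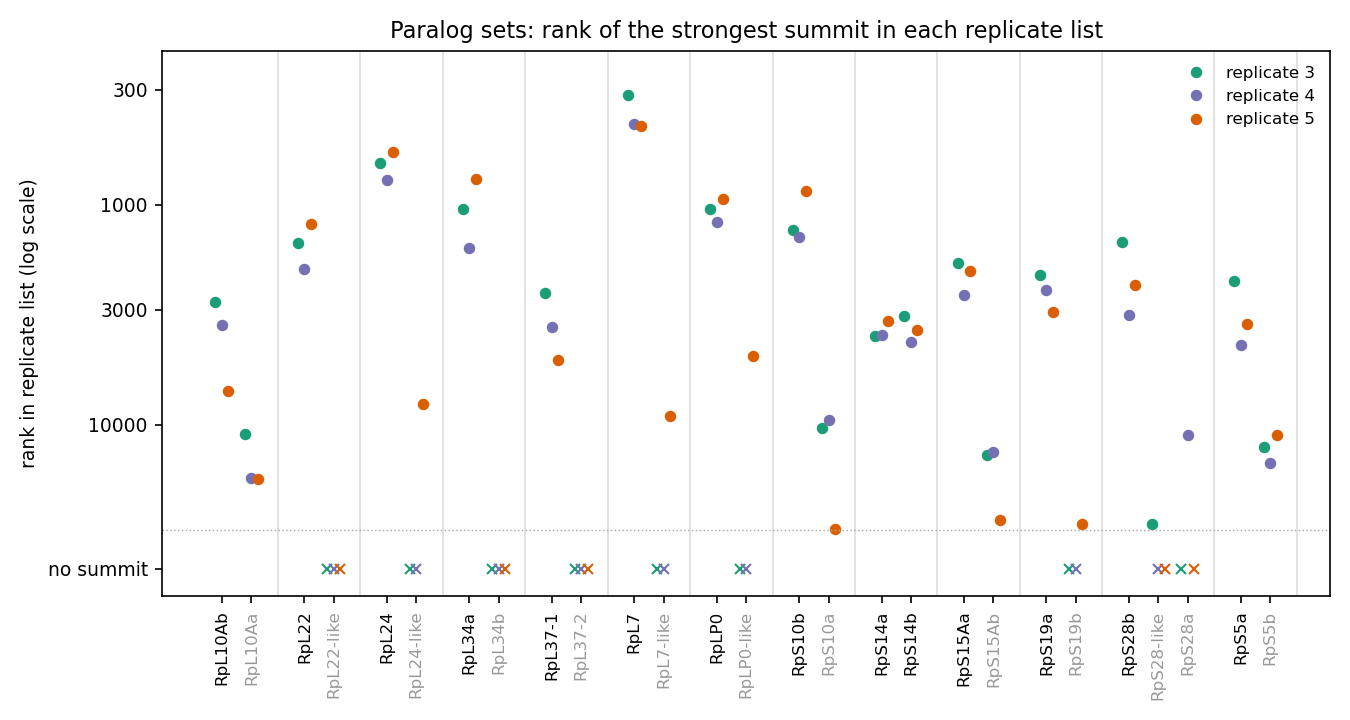
Rank of the strongest summit in the full list of each replicate (y axis, log scale, strongest at the top; crosses mark genes with no assigned summit) for the 27 RP genes of 13 paralog sets (x axis, sets divided by vertical lines). Names in black have an IDR summit and stand first in each set; RpS14 is the set in which both genes have one.

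The 21 members without an IDR summit fell into several kinds. For 4 of them an IDR summit lay within 500 bp of their start but was nearer to another gene. RpS27A shares its start with Ip259 to the base; the summit at rank 1672 lay 25 bp from both and was given to Ip259 by alphabetical order. The others were RpLP0-like (52 bp, nearer to 14-3-3zeta), RpL13 (83 bp, nearer to Dref, which encodes the DRE-binding factor) and RpL34b (151 bp, nearer to CG8132, at rank 233). RpL13 did have summits of its own near the start in replicate 4 (rank 1145, -10 bp) and replicate 5 (rank 5059, 72 bp). With summits within 500 bp counted for every gene, 75 of 92 members had one, against 3179 of all 13945 protein-coding genes. The remaining 17 members had no IDR summit that close, and RpL10Aa, RpL21, RpL22-like and RpL37-2 had none within 500 bp in any of the 5 lists.

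A further group of members had strong replicate peaks but none in the list called on all replicates together. RpS30 ranked 3904, 4117 and 5026 in replicates 3, 4 and 5, at 31, 2 and -21 bp, and its nearest pooled summit was 12960 bp away. RpL5 ranked 2359 in replicate 3 and 2624 in replicate 5, at -45 and 25 bp, and had no summit in replicate 4; the nearest pooled summit was 367372 bp away. RpL10, one of the last proteins to join the large subunit, ranked 2296 in replicate 5 only, at 48 bp, with the nearest pooled summit 147491 bp away. These members thus had summits within 50 bp of the start in some or all replicates, while the IDR list lacks them. RpS24 had a summit near its start in each replicate, at 3, 45 and 48 bp, but at ranks 8823, 14490 and 7413 it was outside the strongest 7176 peaks.

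Few members had more than 1 summit. RpS23, a protein of the decoding centre, had summits at 3, 1563 and 1363 bp. RpLP2 had its stronger summit at -2058 bp (rank 2502) and its promoter summit at -64 bp, and the upstream one recurred at -2045, -2058 and -2047 bp in replicates 3, 4 and 5. RpS26 had summits at 9 and 1795 bp, RpL37A at 21 and 9552 bp, and RpL27A at 3 and -196 bp within a single peak. The other 66 of the 71 members had 1 summit each.

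Members also shared features of gene structure that the choice by symbol did not use. Their catchment, the stretch of DNA nearest to their starts, was short, with a median of 1916 bp against 4253 bp over all protein-coding genes, which leaves less DNA in which a summit can fall. Among genes with a catchment of up to 2108 bp, 36 of 47 members (76.6%) had an IDR summit, against 443 of 3438 other genes (12.9%). Among genes with one over 9871 bp these were 6 of 10 (60.0%) and 1571 of 3477 (45.2%). A divergent neighbour within 1 kb was present at 54 members, and 45 of them (83.3%) had an IDR summit, against 26 of 38 members without one (68.4%). Among other genes the order was the reverse, 24.3% with such a neighbour and 27.7% without one. Over the replicates 84.0% of members and 25.9% of other genes with a divergent neighbour had a summit. Summits at members with such a neighbour were within 50 bp of the start in 65.2%, against 82.4% without one, a difference of -17.2 ± 1.79 points (exact sign-flip p = 0.25).

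Of the 28 members that host a snoRNA gene, 26 (92.9%) had an IDR summit, against 45 of the 64 that host none (70.3%). Among other genes these were 26 of 56 hosts (46.4%) and 26.5% of the rest. RpS5a, with 14 snoRNA genes in its span, and RpS7, with 7, both had a summit. By chromosome arm, members with an IDR summit were 14 of 14 on X, 13 of 14 on 3L, 15 of 21 on 2R, 13 of 19 on 2L, 15 of 23 on 3R and 1 of 1 on 4. The share of other genes was 29.6% on X, 28.3% on 3L, 23.9% on 2R, 26.6% on 2L, 25.6% on 3R and 20.3% on 4. The members without one included 5 of the 6 members that have no intron, the other being RpLP2. An intron was present in 98.6% of members with an IDR summit and 76.2% of those without. Over all protein-coding genes 90.6% of those with an IDR summit had an intron, against 83.8% of all.

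The letters under the summits differed as well. Median GC content in the 101 bp around promoter summits was 44.2% ± 1.51 in members and 31.4% in other genes, a difference of 12.9 ± 1.98 points (SD, n = 3, exact sign-flip p = 0.25). It was 27.9% ± 0.756 at mitochondrial RP genes and 43.1% ± 2.16 at translation factors. GC content at a fixed distance from the start differed less: in the 20 bases before the start it was 48.9% in members and 47.0% in other genes with a promoter summit, and in the 20 bases from position -160 on 30.3% in members and 34.3% in the others. Whether the position of the summits accounts for their GC content was not tested. In the first 20 bases from the start 73% of bases were C or T in members, against 52.9% in the others.

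**Figure D5:**
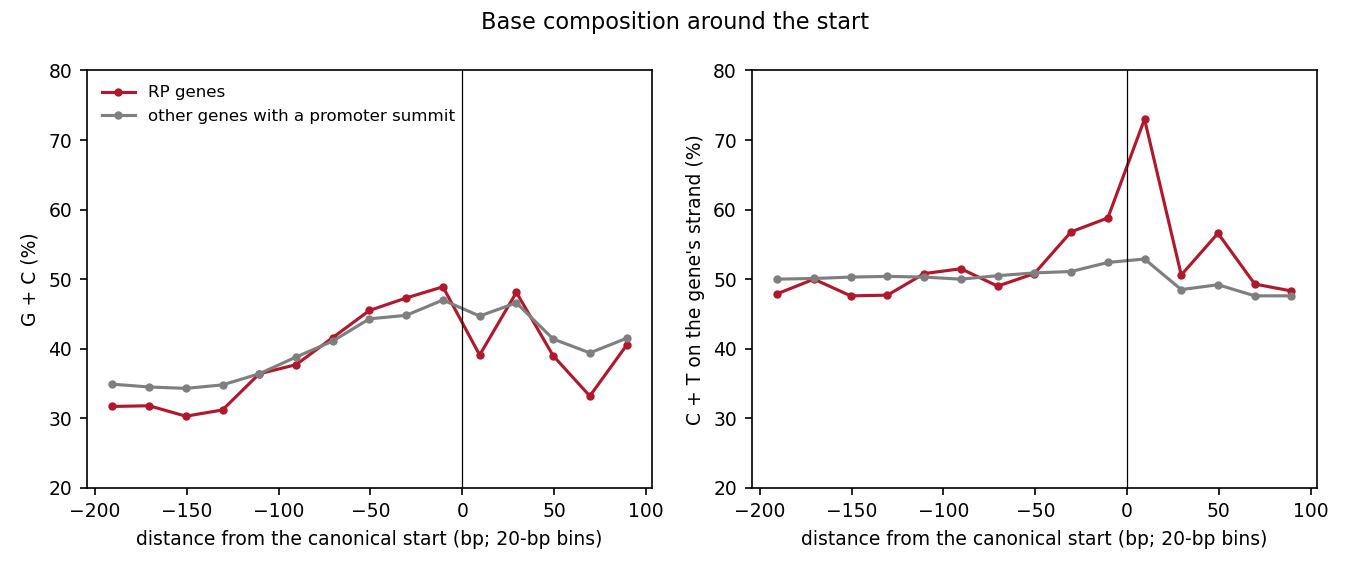
Share of G and C (left) and of C and T on the strand of the gene (right; y axes, percent) by distance from the canonical start (x axis, 20-bp bins) for the 92 RP genes (red) and other protein-coding genes with an IDR promoter summit (grey). The pyrimidine share of the RP genes peaks at 73% just downstream of the start, against 52.9%.

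Pyrimidine runs of 8 or more bases, searched on the strand of the gene from 10 bases before to 30 bases from the start, were present in 61 of 92 members (66.3%, 95% Wilson interval 56.2 to 75.1) and in 910 of all 13945 protein-coding promoters (6.53%). This search was chosen after the letters were seen. Other genes with a promoter summit were at 7.46%, translation factors at 33.3% and mitochondrial RP genes at 13.7%. The stricter word CTTTNT, on the gene's strand with its C within 5 bases of the start, was in 20 of 92 members (21.7%) and in 201 of all 13945 (1.44%). Runs were in 51 of 71 members with a promoter summit (71.8%) and in 10 of 21 without (47.6%), with intervals of 60.5 to 81.0 and 28.3 to 67.6% that overlap.

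Words of known factors were counted in the 300 bases from 250 before to 50 after the canonical start, on both strands except for TATAAA, which was read on the gene's strand; TATCGATA, TAATTA and AATATT read alike on both, and no word contains another. TATCGATA, the DRE, was in 28 of 92 members (30.4%, interval 22 to 40.5) and 8.94% of all promoters, with its centre at a median position of -58.0 bases over 32 occurrences. It was in 36.1% of the translation factors and 20.5% of the mitochondrial RP genes. GGTCACACT, Motif 1, was in 9 members (9.78%, 5.23 to 17.6) and 5.87% of all. TAATTA, a word of homeodomain proteins such as unpg, was in 22 of 92 members (23.9%) and 2794 of all 13945 promoters, a share near the background. TATAAA was in 32.6% of members and 32.2% of all, AATATT in 39 of 92 members and 4188 of all, and GAGAGAG in 0 of 92 members, which allows up to 4.01%, against 6.20% of all. In the 100 bases around the IDR promoter summit the homeodomain word was in 2.82% of members and 11.6% of other genes. The other words of A and T alone were lower in members too, AATATT at 7.04 against 19.2% and TATAAA at 4.23 against 14.8%. The DRE was in 8.45 and 2.30%, and Motif 1 in 7.04 and 1.48%. A word that matches is not a binding site, and its absence says only that these letters are not in the window.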

How the data were processed

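ChIP-seq peaks of unpg-GFP embryos were read from 5 deposited lists on dm6: 1 per replicate and 1 pooled, each of 30000 peaks, and the IDR list. The labels call the replicates biological and give each a biosample of its own. Per the deposited file descriptions, the authors called peaks on alignments against 1 control and derived the IDR list from these; which aligner and caller were used is not given in the sources used here. The deposited signal score has no stated scale and served only to rank peaks within a list; the deposited -log10 q-value reached a ceiling (4.37 in every IDR peak) and was not used. The lists hold no read counts, so depth is unknown, and Wilson intervals cover counting error only. The IDR list was the 7176 strongest pooled peaks, so replicates were cut to their 7176 strongest.

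Summits were assigned to the nearest start of any protein-coding transcript within 20 kb (Python 3.11.15, numpy 2.4.6, scipy 1.17.1, pandas 2.3.3, matplotlib 3.10.9). This step was tested on simulated summits planted at starts with no other start close by. Shared starts, ties and close divergent starts were not part of that test. Equal distances went to the alphabetically first symbol, which in the IDR list touched RpS27A alone among the members. Replicate values were compared by exact sign-flip permutation tests. Named in full were the 12 strongest members, members with several or no IDR summits, paralog sets and role lists, apart from a few results not reported here; other members named were chosen after their values were seen. Members and lists were chosen with earlier results of these data known. No table of RP protein sequences was used here.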

Additional observations from a re-analysis of the deposited data

How the results depend on the processing

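The differences between members and other genes in share, position and rank, and between members and mitochondrial RP genes in share, kept their direction under each alternative run, and none could pass 0.05. With 1 replicate left out, the share of members minus that of other genes was 49.2 to 52.0 points, members minus mitochondrial RP genes 54 to 58.9 points, the RpL minus RpS share 2.78 to 6.48 points, the position 101 to 111 bp and the rank percentile 17.1 to 18.4 points. The number of members with an IDR summit was 66 to 69 in these runs, beside 22.6 to 22.8% of all protein-coding genes. The IDR list was derived from all replicates and was not called anew, so these counts are not the same measure as the 71. The RpL minus RpS share, 4.81 points, was 17.5 points with the strongest 3588 peaks and turned to -6.04 points with all peaks of each replicate; the cause was not tested. With all peaks the position difference was 59.2 bp (106 bp with the strongest) and the percentile difference 26.5 points (17.6). With summits shared between genes, members minus mitochondrial RP genes was 35.2 points (57.3). The count of 71 members ranged from 64 to 79 under the other alternatives, which included the strongest 3588 peaks of the list, other assignments and the pooled list. The share of all protein-coding genes moved as well. It was 17.2% beside 64 members (strongest 3588 peaks), 40.4% beside 79 (gene body and 2 kb) and 45.2% beside 78 (pooled list). With ties counted for each gene, an alternative chosen after seeing the data, 72 members and 27.4% of all protein-coding genes had a summit. Measured to the canonical start, also added afterwards, the position difference was 102 bp. In the 100 bases around the summit in place of the promoter, word shares in members were 8.45% (TATCGATA), 2.82% (TAATTA), 7.04% (AATATT) and 4.23% (TATAAA), in a window with fewer bases; CTTTNT is defined by the start and has no value there. There was 1 group of samples, so replicate numbers pair no samples across groups; the differences between gene groups were taken within each replicate. Depth is unknown, so a member without a summit may lie below the fixed length of a list.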

Other observations

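Of the top 7176 peaks per replicate, 389 (5.42%) in replicate 3, 342 (4.77%) in replicate 4 and 374 (5.21%) in replicate 5 shared no base with any of the 30000 pooled peaks, the strongest of them at ranks 579, 622 and 686. Among these peaks were summits of RpL5 and RpS30 in replicate 3, of RpS30 in replicate 4, and of RpL10, RpL5 and RpS30 in replicate 5. The reverse gap was seen at members with IDR summits. RpL9 (IDR rank 1529) had no summit in the full list of replicate 3, and RpL38 (1890) none in that of replicate 4. RpL18 (2005) and RpS13 (5231) had none assigned to them in replicate 5, which rests on the assignment. Summits of replicate 5 lay 143 bp from an RpL18 start (rank 1330, nearer to Neos) and 101 bp from an RpS13 start (rank 3745, nearer to CSN8).

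Peak width gave opposite signs in the 2 kinds of list. Among the strongest replicate peaks the median width at promoter summits was 276 bp in members and 337 bp in other genes, with differences of -33.0, -92.5 and -56.0 bp in the 3 replicates (exact sign-flip p = 0.25), whereas in the IDR list it was 370 bp in members and 306 bp in other genes.

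The median position of member summits differed between replicates by more than that of other genes, at -19.0, -2.50 and 8.0 bp against -116, -108 and -108 bp. The share of member promoter summits upstream of the start was 69.0% in replicate 3, 52.8% in replicate 4 and 42.7% in replicate 5.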
